A study of Mus musculus with 6 samples.

Results

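The 10 genes described here belong to the cadherin and nectin adhesion systems of endothelium. They encode 3 cadherins (Cdh5, Cdh2 and Cdh13), 4 catenins (Ctnnb1, Ctnna1, Ctnnd1 and Jup), 2 nectins (Nectin2 and Nectin3) and the nectin adaptor Afdn. They were chosen by gene name and are 10 of the 49315 genes counted. All 10 were among the 23989 genes tested. RNA came from 4T1 mouse mammary tumours, a transplantable carcinoma grown for 2 weeks in a fat pad of female Balb/c mice, which were 8 weeks old at inoculation and 10 weeks old at harvest. Every mouse, and so both groups, had received 1E12 gold particles of 50 nm with a 5 kDa methoxy-polyethylene glycol coat and the dye Cy5 through the tail vein 1 hour earlier. CD45-depleted, CD31-selected cells of each tumour were sorted by particle signal, which gave 1 library of nanoparticle-positive (NP+) cells and 1 of nanoparticle-negative (NP-) cells. The 3 tumours are MET-106, MET-107, MET-108, and values are given in that order. The comparison asks how the transcripts of cells that held particles differed from those of cells of the same tumour that did not.

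Endothelial cells hold together at adherens junctions. Cadherins on neighbouring cells bind each other outside the cell. Their tails, which the Cdh13 product lacks, bind p120-catenin near the membrane and either beta-catenin or plakoglobin further along. Alpha-catenin joins this complex to actin. Nectins form a parallel adhesion system that reaches actin through afadin. VE-cadherin, the Cdh5 product, is the main cadherin of endothelium and a control point of vessel permeability.

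The libraries held 20856410 to 58089600 gene counts, and a member had 13 to 50362 counts in a library. Pecam1, the CD31 gene, ran from 2815 to 3812 CPM (CPM are counts relative to the library's tested total, scaled by TMM) in NP+ libraries and from 1931 to 2825 CPM in NP- libraries. Ptprc, the CD45 gene, stood at 3.71, 5.61 and 4.14 CPM in NP+ and at 10.1, 25.7 and 5.89 CPM in NP-. The 24 pan-endothelial markers summed to 20666 to 23910 CPM in NP+ against 13215 to 17573 CPM in NP-. All other marker lists were higher in at least 1 NP- library than in any NP+ library. Fibroblast markers summed to 461 to 889 CPM in NP+ and to 5046, 1125 and 601 CPM in the 3 NP- libraries. Pericyte and smooth muscle markers stood at 102 to 131 CPM and at 955, 300.3 and 177 CPM, and epithelial markers at 22.3 to 30.4 CPM and at 707, 110 and 60.8 CPM. Lymphatic markers stood at 635 to 874 CPM and at 588, 2506 and 1273 CPM. The NP- library of MET-106 correlated at 0.945 to 0.951 (log2 CPM) with the NP+ libraries and at 0.838 to 0.876 with the other NP- libraries. Counts in 1134 olfactory receptor genes, which endothelium is not known to use, were 0.0319 to 0.0981 CPM per kilobase in NP+ and 0.0844, 0.416 and 0.335 CPM per kilobase in NP-. The part of these differences in the results below was not tested, and in such sorted pools fewer cells of a type and less RNA per cell cannot be told apart.

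No member passed an adjusted p under 0.05 over all genes by edgeR's quasi-likelihood test without a tumour block. At that threshold 0.0125% of genes were higher in NP+ and 0.0167% lower (0.0292% in all). The lowest adjusted p was 0.123, for Ctnnb1. At an unadjusted p under 0.05, Ctnnb1 and Ctnnd1 were higher in NP+ and 0 members were lower, against 8.01% of all tested genes higher and 15.4% lower. The share of higher genes depended on abundance, and among the 10825 genes with a mean of at least 5 CPM, which include 9 members, it was 17.5%. By that measure 2 of 9 members lie near the background. The median log2 fold change (NP+ over NP-) was 0.27 for the 10 members, -0.29 for all tested genes and 0.24 for genes with a mean of at least 5 CPM. By groups that do not overlap, Cdh5, Ctnnb1 and Ctnnd1 stood above (13.3% of all tested genes, 27.3% of those with a mean of at least 5 CPM) and Cdh2 stood below (15.6%, and 5.34% of those with a mean of at least 5 CPM, which Cdh2 does not reach). Within tumours, 5 members were higher in 3 of 3 pairs (20.0% of all tested genes) and Cdh2 and Afdn were lower in 3 of 3 (30.2%), where 39.7% and 9.44% of genes with a mean of at least 5 CPM were. By DESeq2, Ctnnb1 and Ctnnd1 passed over all genes (adjusted p = 0.00561 and 0.0466), where 3.96% of genes were higher. With the tumour as a block, the edgeR adjusted p was 0.101 for Ctnnb1 and 0.191 for Ctnnd1. No member passed in that fit, where 2 genes were higher and 13 lower.

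How many members had an unadjusted p under 0.05 depended on the setting, as did the share of all genes. The shares below are of all genes tested in that fit. In the main fit, 17.5% of genes with a mean of at least 5 CPM were higher, against 8.01% of all tested genes. That share of abundant genes was not computed for the other settings. Members higher in NP+ were 4 with DESeq2 (9.2% of genes), limma-voom (9.26%), RLE scaling (8.87%) or no low-count filter (6.43%, with 1 of them, Ctnnb1, past the adjusted threshold against 1.19%). With upper-quartile scaling 1 member was higher (3.27%) and 1 lower (19.6%), and with total-count scaling the same numbers were found (2.54% and 21.0%). Among genes with at least 5 CPM in 3 libraries, 1 was higher (6.44%) and 1 lower (8.75%). With pan-endothelial scaling 4 members were lower (27.6%). Without the NP- library of MET-108, 6 members were higher (10.0%), and without that of MET-106 there were 2 higher (12.3%), with Ctnnb1 past the adjusted threshold (3.48%), and 2 lower (22.4%). In the other 7 fits that left out a library or tumour 2 members were higher, against 3.91%, 6.11% and 3.89% of genes without the NP+ libraries in turn, 6.13% without the NP- library of MET-107 and 12.0%, 4.81% and 4.31% without each tumour.

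**Figure D1:**
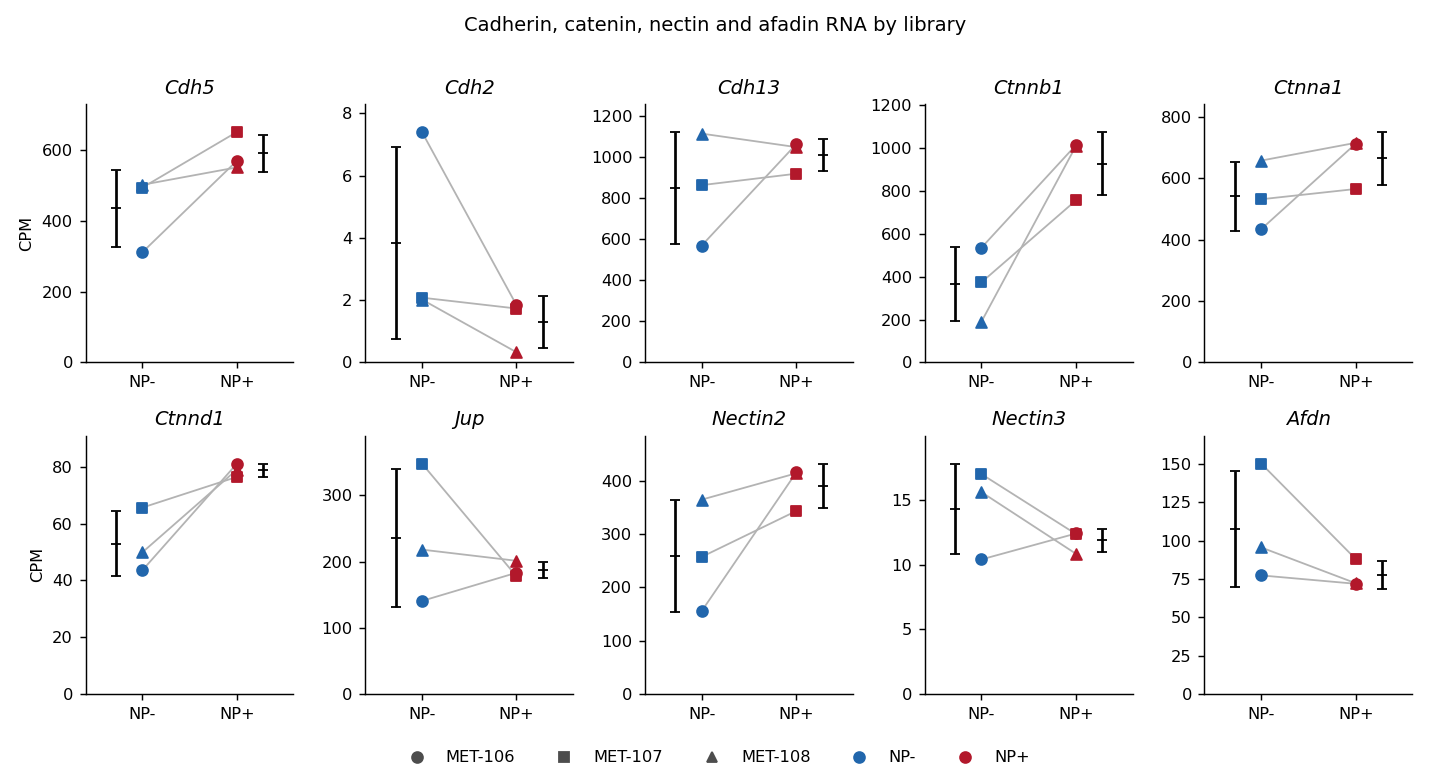
Level of each member in CPM (vertical axes start at 0) in NP- (blue) and NP+ (red) libraries, with a grey line joining the libraries of a tumour and bars for mean ± SD (n = 3). The NP- points of Ctnnb1, from 190.3 to 536 CPM, all lie below its NP+ points, from 757 to 1015 CPM, while those of Cdh13 and Jup lie on both sides.

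Levels were compared between genes as CPM per kilobase of exon. In NP+ cells Ctnna1 (179.5 ± 23.3, SD, n = 3) and Ctnnb1 (179 ± 28.5) were the highest members and overlapped between libraries. Cdh5 followed at 140.4 ± 12.6, and its library of MET-107 lay above those of Ctnna1 and Ctnnb1 from the same tumour. Nectin2 at 112 ± 11.8 and Cdh13 at 89.7 ± 7.04 were next and did not overlap with their neighbours. Jup stood at 29.1 ± 1.91, Ctnnd1 at 10.8 ± 0.317 and Afdn at 7.56 ± 0.900. Nectin3 at 0.931 ± 0.0702 and Cdh2 at 0.161 ± 0.105 closed the order. Over both groups Ctnna1, Ctnnb1, Cdh5, Nectin2 and Cdh13 lay at or above the levels of 96.9% to 98.7% of tested genes, and Cdh2 at or above those of 18.8%. In NP- cells Ctnna1 had the highest mean (146 ± 30.3) and overlapped with Cdh5, and Cdh5, Cdh13, Nectin2 and Ctnnb1 overlapped with each other, from 104 ± 25.7 for Cdh5 to 70.6 ± 33.3 for Ctnnb1.

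**Figure D2:**
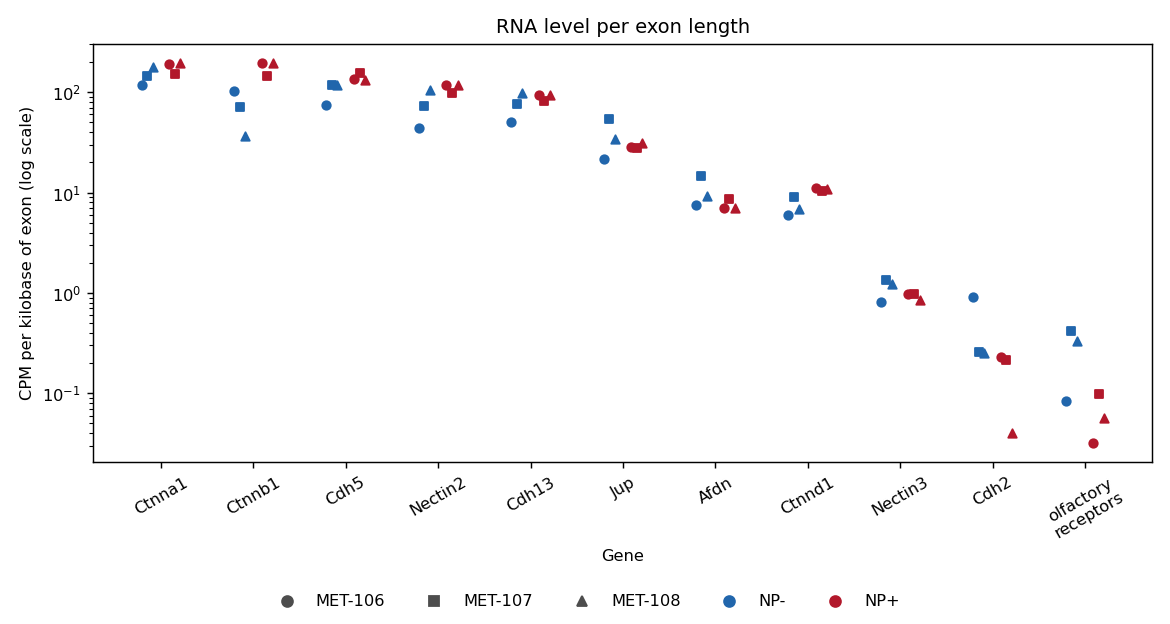
Level per exon length (CPM per kilobase, log scale) of each member and of olfactory receptor genes in every library, ordered by the mean over all 6. Cdh2 lies below the olfactory receptor level of the same library in 3 libraries, and Ctnna1, Ctnnb1, Cdh5, Nectin2 and Cdh13 lie far above that level in all 6.

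The level of Ctnnd1 per kilobase is a lower figure than its RNA may give. Of its 7319 exon bases, 4482 are shared with the annotated gene Gm28635 on the same strand, which has 0 counts in all 6 libraries. Reads on shared bases are commonly assigned to neither gene, and the setting used is not given in the sources used here. Per kilobase of unshared exon Ctnnd1 stood at 27.8 in NP+ and 18.7 in NP-. Ctnnb1 shares 782 of 5192 exon bases with other genes, 759 of them with the opposite-strand gene Ulk4, which had 46 to 178 counts. Per kilobase of unshared exon Ctnnb1 stood at 210 in NP+, above Ctnna1 at 179.5. In NP- it stood at 83.1, above Nectin2 at 77.1 and Cdh13 at 75.4. The order of means given above thus depends on the length used.

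Among the cadherins, Cdh5 stood higher in NP+ without reaching the threshold, Cdh13 overlapped between the groups, and Cdh2 was scarce in both. Cdh5 (chromosome 8, 104101625 to 104144511, plus strand, GRCm38) measured 569, 651 and 551 CPM in NP+ against 311, 494 and 502 CPM in NP-. All NP+ libraries lay above all NP- libraries, with the widest gap in MET-106. The means were 590.2 ± 53.1 and 435 ± 107.97 CPM (SD, n = 3), a log2 fold change of 0.44 (SE 0.22, 95% interval -0.05 to 0.93, edgeR adjusted p = 0.253). When libraries were scaled to their pan-endothelial marker counts the value was -0.04, so this direction depends on the scaling.

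Cdh13 encodes T-cadherin, which is anchored by a lipid, lacks a catenin-binding tail and is a receptor for adiponectin and lipoproteins. It maps to chromosome 8 (118283733 to 119324921, plus strand), and measured 1061, 917 and 1046 CPM in NP+ against 568, 862 and 1112 CPM in NP-. The groups overlapped, since the NP- library of MET-108 was the highest of the 6. Its log2 fold change was 0.25 (SE 0.25, 95% interval -0.31 to 0.81, edgeR adjusted p = 0.535), and it was below 0 with upper-quartile (-0.02), total-count (-0.05) and pan-endothelial scaling (-0.23).

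Cdh2 encodes N-cadherin, which endothelium uses with mural cells and which fibroblasts and mural cells also express. It maps to chromosome 18 (16588877 to 16809246, minus strand), and measured 1.84, 1.73 and 0.326 CPM in NP+ against 7.39, 2.08 and 2.02 CPM in NP-. The NP- library of MET-106 stood apart from the other five, and it was also the library with the most fibroblast and pericyte marker counts. This gave a log2 fold change of -1.56 (SE 0.84, 95% interval -3.47 to 0.35, edgeR adjusted p = 0.284) and -0.60 without that library. Per kilobase, Cdh2 stood at 0.619 and 0.746 times the olfactory receptor level in the NP- libraries of MET-107 and MET-108 and at 0.718 times in the NP+ library of MET-108, so its RNA was not distinguished from counts in silent genes there.

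As a share of Cdh5 plus Cdh2 per kilobase, Cdh2 took 0.168%, 0.138% and 0.0308% in NP+ and 1.23%, 0.219% and 0.209% in NP-. The exact two-sided permutation p was 0.1, the smallest possible. In 3 of the 6 libraries Cdh2 was below the olfactory receptor level, and that level was itself higher in NP-. The separation of these shares is therefore not read as a difference in Cdh2.

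Among the catenins, Ctnnb1 and Ctnnd1 stood higher in NP+ at an unadjusted p under 0.05, and Ctnna1 and Jup overlapped between the groups. Ctnnb1, the beta-catenin gene, which also acts with TCF factors in the nucleus, was 2.53 times as high in NP+ by the ratio of means. It maps to chromosome 9 (120929216 to 120960507, plus strand), and measured 1015, 757 and 1011 CPM in NP+ against 536, 374 and 190.3 CPM in NP-. The groups did not overlap, and the NP- libraries differed among themselves more than the NP+ libraries did. The means were 928 ± 148 and 367 ± 173 CPM, a log2 fold change of 1.34 (SE 0.34, 95% interval 0.56 to 2.12, edgeR unadjusted p = 0.00374, adjusted p = 0.123). Its log2 ratio within the tumours was 0.92, 1.02 and 2.41. The direction held under all 18 other settings, from 0.74 with pan-endothelial scaling to 1.85 without MET-106. Without the NP- library of MET-106 the adjusted p was 0.0280, and without a low-count filter it was 0.0117 (both edgeR). With pan-endothelial scaling the unadjusted p was 0.104 (edgeR, 95% interval -0.19 to 1.66), so the difference no longer passed 0.05.

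Jup encodes plakoglobin, which binds the same tail site as beta-catenin and also joins desmosomes. It maps to chromosome 11 (100368958 to 100397763, minus strand), and measured 183, 178 and 201 CPM in NP+ against 141, 348 and 218 CPM in NP-. The NP+ libraries lay close together inside the NP- range, and the NP- library of MET-107 was the highest. The log2 fold change was -0.33 (SE 0.30, 95% interval -1.005 to 0.34, edgeR adjusted p = 0.4998) and 0.07 without that library, in which lymphatic markers were also at their highest.

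Set side by side within each library, Jup took 12.7%, 15.9% and 13.8% of Ctnnb1 plus Jup counts per kilobase in NP+ and 17.5%, 42.9% and 48.0% in NP-. The share was lower in NP+ in 3 of 3 tumours and the groups did not overlap. It was narrow in NP+ (14.2 ± 1.63%) and wide in NP- (36.1 ± 16.4%), and MET-106 differed by far less than the other tumours. The difference was -22.0 percentage points (exact two-sided permutation p = 0.1, the smallest that 3 against 3 libraries allow).

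**Figure D3:**
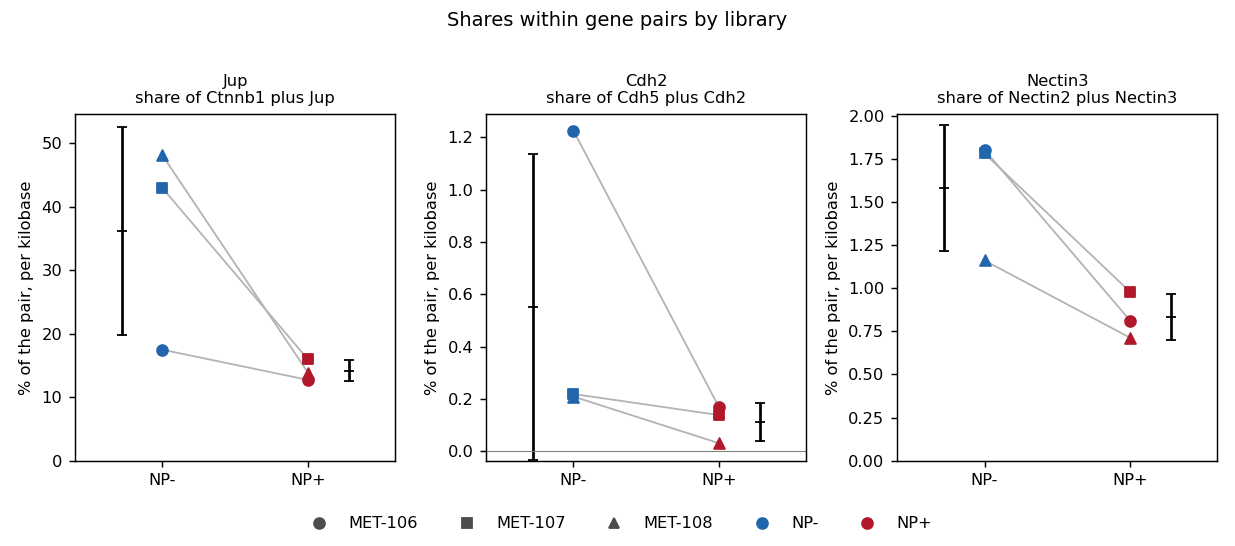
Share of the first gene in each pair's counts per kilobase (percent) in NP- (blue) and NP+ (red) libraries, with grey lines joining the libraries of a tumour and bars for mean ± SD (n = 3). In all 3 pairs each NP+ point lies below each NP- point, and for Jup the NP- library of MET-106 at 17.5% lies close to the NP+ range. The Cdh2 points include 3 libraries in which Cdh2 was below the olfactory receptor level.

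Ctnna1, the alpha-catenin gene, maps to chromosome 18 (35118888 to 35254773, plus strand), and measured 712, 565 and 715 CPM in NP+ against 434, 531 and 657 CPM in NP-. The NP+ value was higher in each tumour but the groups overlapped. Its log2 fold change was 0.30 (SE 0.20, 95% interval -0.17 to 0.76, edgeR adjusted p = 0.385), and it was -0.01 with total-count and -0.21 with pan-endothelial scaling.

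Ctnnd1, the p120-catenin gene, whose product holds VE-cadherin at the membrane, maps to chromosome 2 (84600071 to 84650765, minus strand). It measured 81.1, 76.5 and 79.0 CPM in NP+ against 43.5, 65.6 and 49.9 CPM in NP-. The NP+ libraries were the most uniform of any member (78.9 ± 2.32 CPM) and lay above all NP- libraries (53.0 ± 11.4 CPM). This gave a log2 fold change of 0.57 (SE 0.20, 95% interval 0.12 to 1.03, edgeR unadjusted p = 0.0194, adjusted p = 0.159), and it was 0.07 with pan-endothelial scaling. The unadjusted p did not pass 0.05 with upper-quartile (0.156), total-count (0.240) or pan-endothelial scaling (0.755), with the filter of at least 5 CPM in 3 libraries (0.193) or without tumour MET-108 (0.0725), all by edgeR.

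The stretch before the annotated start is shown for Ctnnb1 and Ctnnd1, the members past an unadjusted p of 0.05, and for Jup, the catenin that shares the tail site with beta-catenin. The sequences are the 250 bases upstream of a RefSeq start on GRCm38.p6, 5′ to 3′ on the gene's strand, for the first start listed. Against the gene bounds of the counts' annotation, the Ctnnb1 window lies inside the gene and the Ctnnd1 and Jup windows lie before it. Capitals mark GC boxes (GGGCGG or its reverse complement CCGCCC), the motif of SP1-type factors.
Ctnnb1, chr9:120933150-120933399, plus strand: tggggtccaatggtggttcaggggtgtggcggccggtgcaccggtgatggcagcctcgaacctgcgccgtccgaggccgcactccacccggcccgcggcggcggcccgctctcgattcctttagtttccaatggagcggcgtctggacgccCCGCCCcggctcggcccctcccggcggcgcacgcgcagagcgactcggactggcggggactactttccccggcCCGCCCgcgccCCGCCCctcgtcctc
Ctnnd1, chr2:84658978-84659227, minus strand: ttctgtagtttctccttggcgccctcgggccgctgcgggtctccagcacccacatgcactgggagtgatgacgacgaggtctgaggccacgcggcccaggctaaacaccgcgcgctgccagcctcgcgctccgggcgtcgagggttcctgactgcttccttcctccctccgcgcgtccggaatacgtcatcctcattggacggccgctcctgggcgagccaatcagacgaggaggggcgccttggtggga
Jup, chr11:100397791-100398040, minus strand: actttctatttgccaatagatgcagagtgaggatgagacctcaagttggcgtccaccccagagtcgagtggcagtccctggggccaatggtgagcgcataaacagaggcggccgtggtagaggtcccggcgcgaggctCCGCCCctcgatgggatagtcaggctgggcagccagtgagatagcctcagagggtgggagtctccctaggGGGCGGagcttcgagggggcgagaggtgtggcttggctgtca
Ctnnb1 held 3 GC boxes, Jup 2 and Ctnnd1 0. A GC box occurred in 5 of the 6 members in that table and in 32.9% of its 27025 genes' windows. An ETS site (CCGGAAG, both strands) occurred in Nectin2 alone, against 7.1% of windows, and an E-box (CACGTG, its own reverse complement) in 0 of the 6, against 6.0% of windows. No matches overlapped in these windows. A match is a run of letters in the window and says nothing here of binding.

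Of the nectins, Nectin2 (also called CD112, a ligand of lymphocyte receptors) was abundant and Nectin3 scarce. Nectin2 maps to chromosome 7 (19716644 to 19750483, minus strand), and measured 415, 343 and 414 CPM in NP+ against 155, 257 and 364 CPM in NP-. The NP+ value was higher in each tumour, but the NP- library of MET-108 lay above the NP+ library of MET-107. The log2 fold change was 0.59 (SE 0.29, 95% interval -0.06 to 1.25, edgeR unadjusted p = 0.0695, adjusted p = 0.245). Within tumours it was 1.42, 0.42 and 0.18, the reverse of the order seen for Ctnnb1. With the tumour as a block the unadjusted p was 0.0418 (edgeR adjusted p = 0.208), which brings the members higher at an unadjusted p under 0.05 to 3 of 10. The share of all tested genes was 7.85%. The share among genes with a mean of at least 5 CPM, 17.5% without the block, was not computed for this fit.

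Nectin3, which binds nectins on the facing cell, maps to chromosome 16 (46387706 to 46498525, minus strand). It measured 12.4, 12.4 and 10.8 CPM in NP+ against 10.4, 17.0 and 15.6 CPM in NP-, with overlap. Its log2 fold change was -0.27 (SE 0.29, 95% interval -0.93 to 0.39, edgeR adjusted p = 0.571). Per kilobase its NP- levels in MET-107 and MET-108 were 3.20 and 3.65 times the olfactory receptor level, against 9.89 to 30.5 times in NP+. As a share of Nectin2 plus Nectin3 per kilobase, Nectin3 took 0.813%, 0.979% and 0.713% in NP+ and 1.80%, 1.78% and 1.16% in NP-, without overlap (0.835 ± 0.134% and 1.58 ± 0.365%, exact two-sided permutation p = 0.1, the smallest possible). The part of these background counts in the Nectin3 share was not tested. The Jup and Nectin3 shares belong to a family of 3 with that of Cdh2, over which their Benjamini-Hochberg adjusted permutation p is 0.1.

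Afdn encodes afadin, which ties nectins to actin and binds the GTPase RAP1. It maps to chromosome 17 (13760539 to 13906150, plus strand), and measured 71.8, 87.9 and 72.2 CPM in NP+ against 77.3, 150.2 and 95.5 CPM in NP-. The NP- value was higher in each tumour, with the NP- library of MET-107 highest and an overlap through the NP- library of MET-106. This gave a log2 fold change of -0.48 (SE 0.26, 95% interval -1.06 to 0.10, edgeR adjusted p = 0.283). It was -0.96 with pan-endothelial scaling and -0.15 without the NP- library of MET-107.

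**Figure D4:**
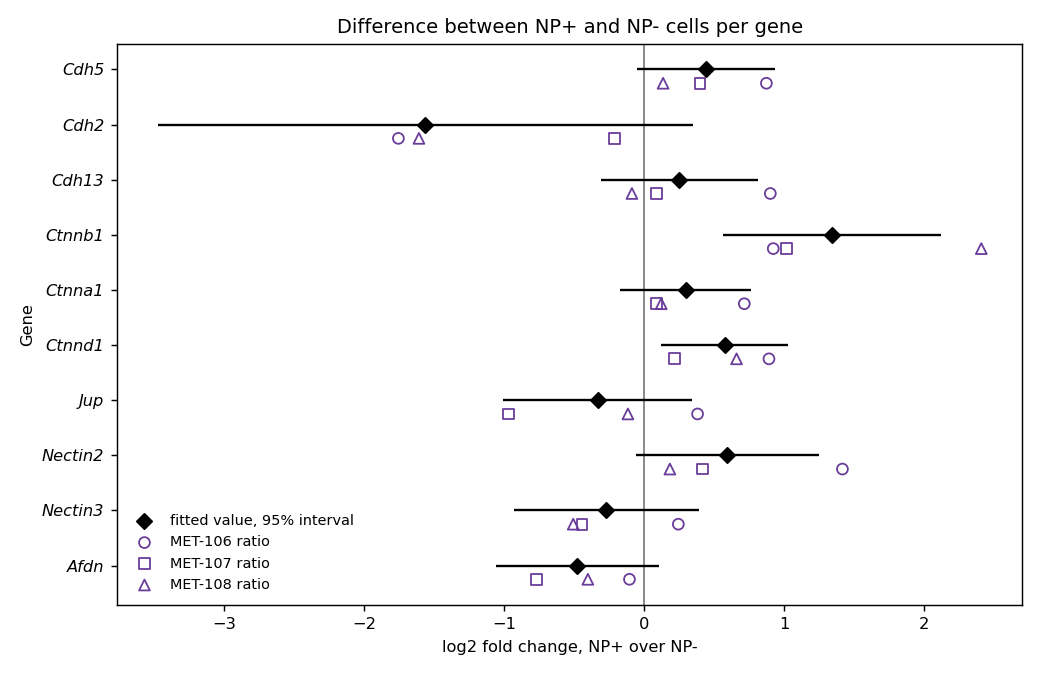
Log2 fold change of NP+ over NP- for each member, as the edgeR estimate with its 95% interval (diamond and line) and as the ratio within each tumour (open symbols, computed with 0.5 CPM added). The intervals of Ctnnb1 and Ctnnd1 lie above 0, the other 8 include 0, and the tumours of Ctnnb1 and Nectin2 fall in opposite orders.

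Every member varied more between NP- than between NP+ libraries relative to its mean, as did 74.6% of all tested genes and 83.3% of those with a mean of at least 5 CPM. The SD was 2.94% to 15.9% of the mean in NP+ for the 9 members other than Cdh2, and 20.7% to 47.1% in NP-. NP- levels did not move together. From MET-106 to MET-108, Ctnnb1 was lower (536 and 190.3 CPM) while Nectin2 (155 and 364 CPM), Cdh13 (568 and 1112 CPM) and Cdh5 (311 and 502 CPM) were higher. Jup, Nectin3 and Afdn were highest in the NP- library of MET-107.

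The members were also expressed per 1000 pan-endothelial marker counts of the same library. Cdh5 then stood at 23.8, 31.5 and 23.9 in NP+ and 23.5, 29.5 and 28.5 in NP-, so the groups overlapped. Ctnnb1 stood at 42.4, 36.6 and 43.9 in NP+ and 40.5, 22.3 and 10.8 in NP-, so its groups overlapped too, and the MET-106 pair was nearly level. Jup (8.33 ± 0.587 and 14.6 ± 5.42), Afdn (3.46 ± 0.687 and 6.75 ± 1.93) and Nectin3 (0.529 ± 0.0644 and 0.897 ± 0.114) were lower in NP+ without overlap. Ctnna1 (29.4 ± 1.90 and 33.97 ± 3.01) and Cdh2 (0.0583 ± 0.0384 and 0.266 ± 0.254) also were. These 5 of 10 members stand against 33.4% of all tested genes that were lower without overlap on this scale. As given above, Cdh2 lay below the olfactory receptor level in several libraries, so its separation is not read as a difference. Of the 9 members with a mean of at least 5 CPM, Jup, Afdn, Nectin3 and Ctnna1 stand against 24.8% of such genes. With NP+ higher without overlap there were 0 members, against 1.11% of tested genes and 2.19% of the abundant ones.

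Other genes of the junction came from 8 lists, in which 0 of 171 tested entries passed over all genes by edgeR's quasi-likelihood test (a few genes stand on 2 lists). DESeq2 made calls in each of the 8, where it called 3.96% of all genes higher and 9.81% lower. They were 7 higher and 0 lower of 30 for the VE-cadherin phosphatases, kinases and turnover factors, 6 and 1 of 25 for the actin linkers, 4 and 1 of 25 for the destruction complex, and 2 and 4 of 21 for the beta-catenin targets. They were 2 higher and 10 lower of 42 for the other cadherins, and 5 of 11 other catenins, 3 of 8 desmosomal partners and 2 of 9 nectin-like genes were lower with 0 higher. The DESeq2 shares are over all tested genes and were not computed for genes with a mean of at least 5 CPM. In the phosphatase, actin linker and destruction complex lists, 27, 23 and 18 genes reach that mean. The counts that follow are at an unadjusted p under 0.05 among genes with a mean of at least 5 CPM, against 17.5% higher and 5.48% lower overall. Of 27 such genes for phosphatases, kinases and turnover factors of VE-cadherin, 12 were higher and 1 lower, with a median log2 fold change of 0.51 against 0.24 for all such genes. This balance depended on the scaling. Over all 30 tested genes of the list it was 12 higher and 2 lower with TMM, 6 and 4 with upper-quartile, 5 and 4 with total-count and 3 and 4 with pan-endothelial scaling (median -0.10). Ptprm, a receptor phosphatase found at cadherin contacts, stood at 237 ± 24.6 CPM in NP+ against 89.6 ± 6.62 CPM in NP- (edgeR adjusted p = 0.0527). Ptprg, from the same list, stood at 246 ± 11.8 and 104.5 ± 12.1 CPM (0.0600). Pak2, a kinase downstream of Rac and Cdc42, stood at 264 ± 32.7 and 99.97 ± 30.2 CPM (0.0875), and Yes1, a Src-family kinase, at 176 ± 16.5 and 78.1 ± 20.5 CPM (0.0889).

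Of 23 actin linkers and afadin partners, 9 were higher and 2 lower. Over all 25 tested genes of the list, these counts of 9 and 2 became 3 and 3 with upper-quartile, 2 and 3 with total-count and 0 and 5 with pan-endothelial scaling, so the excess of higher genes was not kept. Rasip1, an endothelial partner of RAP1, stood at 154 ± 26.7 CPM in NP+ against 79.6 ± 20.0 CPM in NP- (edgeR adjusted p = 0.117). Zyx, the zyxin gene, stood at 236 ± 21.2 and 112 ± 47.2 CPM (0.135), and Tjp1, the ZO-1 gene, at 285 ± 39.4 and 169.8 ± 45.9 CPM (0.142). Pard3, a polarity gene, stood at 1.69 ± 1.16 and 10.1 ± 7.10 CPM (0.144), and its groups overlapped. Per kilobase Pard3 was 1.43, 2.07 and 1.78 times the olfactory receptor level in NP+ and 9.72, 2.66 and 0.456 times in NP-. The part of such background counts in its difference was not tested.

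Of 18 genes of the beta-catenin destruction complex and its nuclear partners, 6 were higher and 1 lower. Over all 25 tested genes the counts were 6 and 2 with TMM, 3 and 2 with upper-quartile, 2 and 3 with total-count and 1 and 7 with pan-endothelial scaling, so the balance turned. Fbxw11, a ubiquitin ligase gene that acts on phosphorylated beta-catenin, stood at 162 ± 23.1 CPM in NP+ against 48.9 ± 27.3 CPM in NP- (edgeR adjusted p = 0.1005). Csnk1d, a casein kinase gene, stood at 314 ± 57.0 and 156 ± 41.3 CPM (0.113). Usp9x, a deubiquitinase gene, stood at 105 ± 21.0 and 65.1 ± 9.76 CPM (0.143), and Pygo2, a co-activator gene, at 52.9 ± 12.0 and 29.8 ± 7.96 CPM (0.148). Of 11 genes listed as beta-catenin targets, 2 were higher and 2 lower, and over all 21 tested it was 2 and 6 with TMM and 0 and 7 with pan-endothelial scaling. Sox17 stood at 66.1 ± 13.0 and 26.5 ± 7.31 CPM (0.0955) and Slc2a1, the glucose transporter 1 gene, at 289 ± 45.6 and 164 ± 64.8 CPM (0.165). Znrf3 (4.16 ± 1.27 and 10.9 ± 7.10 CPM, 0.175) and Nkd2 (3.24 ± 1.84 and 10.6 ± 8.74 CPM, 0.193), both feedback inhibitors of the Wnt pathway, had lower means in NP+. The groups of each overlapped. Znrf3 in NP+ of MET-108 (5.24 CPM) and Nkd2 in NP+ of MET-106 (5.35 CPM) exceeded their NP- levels in MET-107 (5.11 and 2.95 CPM). Per kilobase, Znrf3 was 1.56 times the olfactory receptor level in the NP- library of MET-107, and Nkd2 lay nearer still to that level there. The part of such background counts in both differences was not tested.

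Of 13 other cadherins, 2 were higher and 4 lower. Pcdh1, a protocadherin gene, stood at 113 ± 10.8 CPM in NP+ against 43.0 ± 9.25 CPM in NP- (edgeR adjusted p = 0.0681), and Dchs1, an atypical cadherin gene, at 74.8 ± 10.4 and 34.6 ± 9.02 CPM (0.107). Cdh1, the epithelial E-cadherin gene, stood at 0.357, 0.419 and 1.13 CPM in NP+ against 24.5, 19.1 and 6.73 CPM in NP- (0.0600), beside the epithelial marker sums given above, to which it belongs. Relative to the olfactory receptor level per kilobase, Cdh1 stood at 2.45, 0.934 and 4.38 times in NP+ and at 63.4, 10.0 and 4.39 times in NP-. Fat1 stood at 1.47 ± 0.418 and 9.10 ± 2.93 CPM (0.0875). Per kilobase Fat1 was 1.98, 1.08 and 1.99 times the olfactory receptor level in NP+ and 9.40, 1.22 and 1.31 times in NP-. Over all 42 tested genes of this list the median log2 fold change was -1.73, and 4 of the 14 that were lower had a mean of at least 5 CPM. The part of the higher olfactory receptor counts of NP- libraries in Cdh1, in Fat1 and in the scarce ones was not tested.

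The remaining lists were mostly scarce. Of 5 other catenins and plakophilins, Ctnnal1, an alpha-catenin relative, was lower (17.5 ± 7.46 and 32.2 ± 8.05 CPM, edgeR adjusted p = 0.180), while Pkp4 (54.4 ± 2.97 and 76.8 ± 20.6 CPM), Ctnnbip1 (15.7 ± 2.73 and 9.97 ± 2.99 CPM) and Ctnnbl1 (101 ± 5.25 and 83.0 ± 11.8 CPM) did not pass an unadjusted p of 0.05. The nectin-like list held 1 such gene, the poliovirus receptor gene Pvr, at 117 ± 22.7 and 79.5 ± 27.7 CPM (0.266). All 8 desmosomal partners of plakoglobin had a mean under 5 CPM, and their sum was 3.10 to 4.75 CPM in NP+ against 23.4 to 26.9 CPM in NP-. Dsp and Perp, which belong to this sum, are also on the epithelial marker list. The part of the higher olfactory receptor counts of NP- libraries in these scarce genes was not tested.

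**Figure D5:**
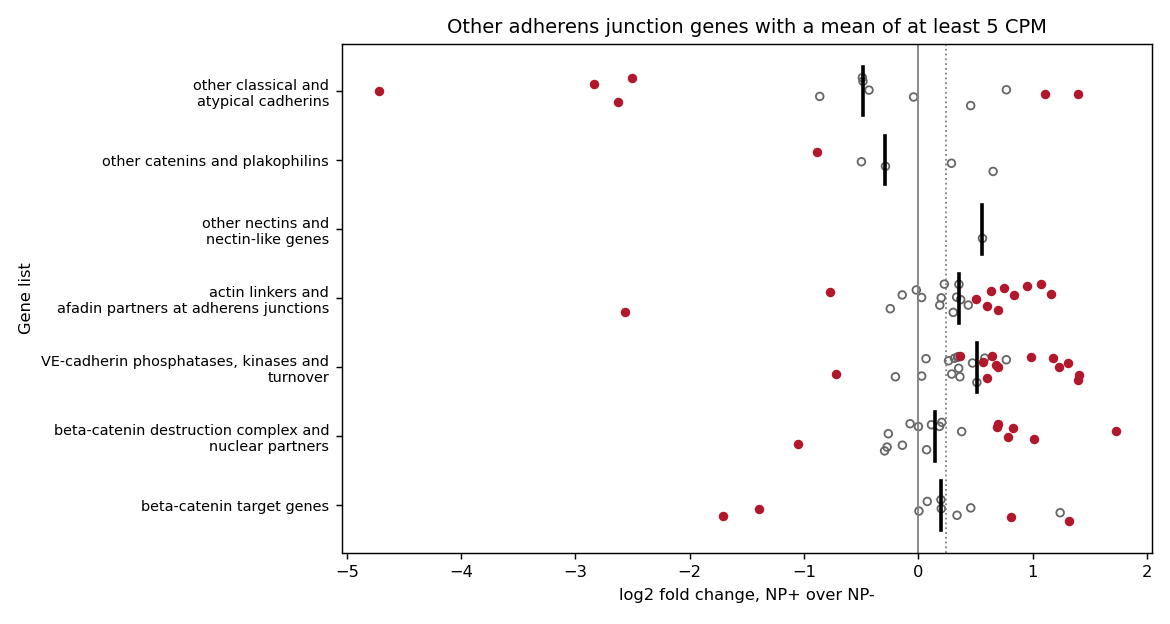
Log2 fold change of NP+ over NP- for other junction genes with a mean of at least 5 CPM, by list, with filled red points for an unadjusted p under 0.05, open points for the rest, black bars for list medians and a dotted line at 0.24, the median of all such genes. The phosphatase and kinase list has its median at 0.51 and the other cadherins at -0.48.

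Among the 10825 genes with a mean of at least 5 CPM, those nearest in pattern were taken by the root mean square distance of log2 CPM (0.5 added) centred over the 6 libraries. For Cdh5 they were Cdr2 (distance 0.0564), Fbxw8 (0.0792) and Phactr4 (0.0883). For Ctnnb1 they were E2f4 (0.0983), Parg (0.104) and Ermp1 (0.116), with log2 fold changes of 1.27, 1.27 and 1.40 against 1.34 for Ctnnb1. Because these genes were chosen by their pattern over the same 6 libraries, close fold changes follow from the choice.

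The authors' deposited table, whose log2 fold changes are NP- over NP+ and were turned here, gives Ctnnb1 1.40 (adjusted p = 0.00511) and Ctnnd1 0.66 (adjusted p = 0.0456). Of the genes in the authors' deposited table with an adjusted p, 3.71% were called higher in NP+ and 9.45% lower, and the adjusted p of the other 8 members ran from 0.111 for Nectin2 to 0.715 for Nectin3.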

How the data were processed

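Per the submitters' processing notes, reads were trimmed with Trimmomatic 0.036, aligned with STAR 2.5.2b to GRCm38 (mm10) and counted with featureCounts of Subread 1.5.2. The files deposited by the authors hold 1 raw count per gene and library. No annotation release, strand mode or rule for multi-mapped reads is given in the sources used here. Libraries were made with SMART-Seq v4, per the labels' protocols, a kit that does not mark strand. The authors' deposited table also holds log2 fold changes and p-values, for which the notes name DESeq2 with no version. Of its 11710 log2 fold changes above 1 in size, 100% had the sign of NP- over NP+.

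The 10 members, the gene lists and the tests were chosen with earlier results of these data known. Genes were fitted with edgeR 4.0.16 (quasi-likelihood test, TMM scaling, filterByExpr with a minimum count of 10) in R 4.3.3, without a block, and p values were adjusted over all 23989 genes (Benjamini-Hochberg, threshold 0.05). Levels are CPM on tested counts and TMM factors. Alternatives were a tumour block, DESeq2 1.42.0, limma-voom (limma 3.58.1), 4 other scalings, 2 filters and leaving out libraries or tumours. The same number marks the same tumour in both groups, per the labels, and same-tumour deviations from the group means correlated at 0.28, 0.21 and 0.02. On data simulated for this comparison (22480 genes tested), the test found 28 of 91 genes changed by 1.5 and 47 of 93 changed by 3 on the log2 scale. It also called 3 unchanged genes. The changed genes were drawn from tested genes of any abundance, so these rates are not those of the members. Named list genes are the up to 4 per list with the smallest p and a mean of at least 5 CPM.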

Additional observations from a re-analysis of the deposited data

How the results depend on the processing

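With the tumour as a replicate block, 2 genes were higher and 13 lower over all genes, against 3 and 4 without it, and 0 members passed either way. For the shares, the exact sign-flip test within tumours gave differences of -22.0 and -0.747 percentage points for Jup and Nectin3 (p = 0.25, the smallest that 3 pairs allow). Per kilobase of unshared exon, a setting added after seeing the data, the differences were -20.4 for Jup and -0.719 for Nectin3. Over all genes, the higher and lower counts were 949 and 2353 by DESeq2, 525 and 686 with no low-count filter, 18 and 87 with at least 5 CPM in 3 libraries, and 0 and 20 with pan-endothelial scaling. Limma-voom gave 12 higher, upper-quartile scaling 18 lower and total counts 9 lower. Leaving out a library or tumour gave 0 to 968 higher and 0 to 1352 lower. Members past the adjusted threshold were 2 higher by DESeq2, 1 with no low-count filter and 0 to 1 on leaving out a library or tumour, and none lower in these fits. Those at an unadjusted p under 0.05 were 4 higher by DESeq2, limma-voom, RLE scaling or no low-count filter, and 1 higher and 1 lower with upper-quartile scaling, total counts or at least 5 CPM in 3 libraries. With pan-endothelial scaling they were 0 higher and 4 lower (Cdh2, Jup, Nectin3 and Afdn). Leaving out a library or tumour gave 2 to 6 higher (6 without the NP- library of MET-108) and 0 to 2 lower (2 without that of MET-106).

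Signs turned for Cdh5 with pan-endothelial scaling (-0.041), for Cdh13 with upper-quartile (-0.018), total-count (-0.054) and pan-endothelial scaling (-0.23) and with at least 5 CPM in 3 libraries (-0.029), and for Ctnna1 with total-count (-0.0086) and pan-endothelial scaling (-0.21). For Jup, leaving out a library or tumour gave -0.54 to 0.10, above 0 without the NP- library of MET-107 (0.074). Cdh2 is not tested under the 5 CPM filter. The median of all genes was -0.29 with TMM, -0.53 with upper-quartile, -0.59 with total-count and -0.81 with pan-endothelial scaling. The cause of these differences was not tested. No fit at equal depth was made. The lowest count of a member was 13, for Cdh2.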
